A study of Mus musculus with 6 samples.

Results

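Expressed processed pseudogenes are genes that the deposited count table marks as processed pseudogenes and that held at least 60 expected counts over the 6 libraries together. There were 1190 of them among 2325 processed pseudogenes (51.2%) and among 20199 genes in the table (5.89%). They were chosen by their counts summed over both genotypes, so their levels are a description, and the difference between genotypes was not used in the choice. The study profiled RNA of smooth muscle cells, which contract the vessel wall, taken from the aorta of 12-week mice of the strain labelled C57B6. The KO group held 3 samples of genotype miR-21fl/flmTmG/Myh11ERT2, labelled miR21 -/-, and the WT group held 3 samples of genotype WT/mTmG/ Myh11ERT2, labelled control. Both genotypes thus carried mTmG, a fluorescent reporter of Cre activity, and Myh11ERT2, an inducible driver under the smooth muscle myosin promoter, so that the floxed miR-21 alleles distinguished them. The labels used here state neither an inducer treatment nor a separate animal per sample, so the p-values below measure the spread between these samples, which may be technical. The deleted microRNA was not measured in these libraries, and the genotype labels were not checked by it.

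A processed pseudogene arises when a messenger RNA is copied back into DNA and inserted elsewhere in the genome, usually without introns and without the promoter of the gene it was copied from, its parent. Genes that are strongly transcribed in the germ line, above all those of ribosomal proteins, have left many such copies. Most copies carry mutations that end the reading frame, although some are transcribed from a promoter near the insertion and a few are translated. Because a copy resembles its parent, a short read can match both, and counting tools that give expected counts divide such a read between the genes it matches. Which tool did the counting here is not stated by the labels. In bulk samples, fewer cells of a type and less RNA per cell cannot be told apart.

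The cells carried the markers of their labelled type. The 7 smooth muscle markers (Acta2, Myh11, Tagln, Cnn1, Smtn, Lmod1 and Des) summed to between 43421 and 44502 counts per 1e6 (CPM) in KO libraries and between 41996 and 48283 CPM in WT libraries. The 5 endothelial markers summed to 35.2 to 47.1 CPM in KO and 36.5 to 38.5 CPM in WT, the 5 adventitial fibroblast markers to 44.5 to 90.1 CPM in KO and 54.5 to 73.2 CPM in WT, and the 5 macrophage markers to 1.37 to 6.92 CPM in KO and 3.57 to 7.74 CPM in WT. Of 4 adipocyte markers 1 was in the table, at 38.9 to 68.8 CPM in KO and 53.5 to 74.5 CPM in WT. The 3 erythroid genes summed to 551 to 674 CPM in KO and 260 to 813 CPM in WT. Library totals ran from 17216701 to 27568002 counts in KO and from 17123748 to 28610649 counts in WT.

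The likeness between a copy and its parent can be read in the sequence itself. RefSeq's table for GRCm38.p6, the assembly behind mm10, holds a start window for 9 of the pseudogenes, and 5 of them are shown because they hold a stretch of the coding gene that their symbol names or, for Gm7429, that matched longest. Gm15455, whose longest match was a run of 40 bases, is described below but not shown. Each line runs from 100 bases before to 50 bases after the annotated start. Capitals mark letters inside an unbroken run of at least 16 bases that also occurs in a coding transcript of that gene in GENCODE vM1, which was used for sequence only. The windows are Tma7-ps at chr1:171710970-171711119 on the plus strand, Gm7429 at chrX:114981336-114981485 on the minus strand, H3f3c at chr2:119666103-119666252 on the minus strand, Rpl32l at chr10:20208339-20208488 on the plus strand and Tdg-ps at chr15:82516195-82516344 on the plus strand.
Tma7-ps: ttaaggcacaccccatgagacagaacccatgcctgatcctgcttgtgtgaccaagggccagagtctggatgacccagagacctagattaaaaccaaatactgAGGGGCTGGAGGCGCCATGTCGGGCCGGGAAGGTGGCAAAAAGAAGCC
Gm7429: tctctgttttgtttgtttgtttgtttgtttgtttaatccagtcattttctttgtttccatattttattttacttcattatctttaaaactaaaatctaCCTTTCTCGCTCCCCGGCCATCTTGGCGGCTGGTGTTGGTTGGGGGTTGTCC
H3f3c: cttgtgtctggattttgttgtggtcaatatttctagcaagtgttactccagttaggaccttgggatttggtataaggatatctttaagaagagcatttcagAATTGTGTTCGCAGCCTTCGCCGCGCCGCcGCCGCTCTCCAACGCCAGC
Rpl32l: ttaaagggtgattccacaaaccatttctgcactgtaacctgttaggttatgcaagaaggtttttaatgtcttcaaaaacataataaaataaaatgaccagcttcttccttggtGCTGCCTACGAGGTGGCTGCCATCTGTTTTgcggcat
Tdg-ps: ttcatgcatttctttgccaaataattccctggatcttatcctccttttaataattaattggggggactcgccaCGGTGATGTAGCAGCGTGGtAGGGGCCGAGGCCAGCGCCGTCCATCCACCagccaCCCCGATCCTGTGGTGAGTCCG
In Tma7-ps, Gm7429, H3f3c and Rpl32l the capitals begin at or close to the annotated start, and the bases before them hold no such run of that gene, whereas in Tdg-ps they also reach further upstream. Runs in other coding transcripts were not marked. In the 250 bases before the start, the longest run in any coding transcript had 34 bases for H3f3c and 32 for Gm7429. Past the start, Gm7429 also shared 25 bases with Gm6570, H3f3c 18 with Sf1 and Tma7-ps 16 with Akap9. Tma7-ps shared a run of 48 bases with Tma7, which encodes a small protein linked to ribosomes and is called Ccdc72 in vM1. The run went from base 3 to base 50 after the start. Gm7429 shared an unbroken run of 52 bases with Rpl30, the gene of a large-subunit ribosomal protein, which began 2 bases before the start. H3f3c shared 48 of its first 50 bases with H3f3a, a gene of the replacement histone H3.3, with a longest run of 29 bases. Rpl32l shared a run of 30 bases with Rpl32, another large-subunit ribosomal protein gene, although a run of 31 bases was found in Gm4987. Tdg-ps shared 45 of its first 50 bases with Tdg, which encodes thymine DNA glycosylase, a DNA repair enzyme, and 26 of the 100 bases before its start. A run of 61 bases in Gm5806 was longer than any Tdg-ps shared with Tdg. Of the other 4 windows, that of Gm15455 shared 40 of its first 50 bases and 92 of the 100 bases before with Rbm10, an RNA-binding protein gene. In AA414768, Gm12657 and Gm36298 the longest run reaching past the start had at most 16 bases. A shared run is a description of the letters in these windows and says nothing about which locus a read came from.

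The pseudogenes covered more than 3 orders of magnitude in level. The mean CPM over the 6 libraries ran from 0.418 to 1064, with a median of 2.88, and 882 of the 1190 reached 1 CPM, 327 reached 10 CPM and 33 reached 100 CPM. The 10 most abundant held 28.7% of all counts in the class and the 100 most abundant held 66.2%. Their annotated spans had a median of 682.5 bases and ran from 136 to 11642 bases. The order changes when levels are set per length. Gm10123 then led with 1644 CPM per kilobase of span, ahead of Gm5526 with 1552, Hsp25-ps1 with 1127, Gm12895 with 975 and Gm11410 with 931.

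Gm11410 on chromosome 4, at chr4:80003989-80005131 on the plus strand, was the most abundant by CPM. It stood at 1082, 1072 and 1078 CPM in KO replicates 1 to 3 and at 1107, 1016 and 1029 CPM in WT replicates 1 to 3. The groups overlapped and the KO values lay within 10 CPM of each other (log2 fold change 0.04 ± 0.11 SE, edgeR adjusted p = 0.945). The genes whose log2 CPM was most like it over the 6 libraries were Gm6394 (Pearson r = 0.994), another processed pseudogene, and the coding genes Prkcz (0.985), Ccar1 (0.984) and Cacnb1 (0.982), a description over 6 points that share depth and scaling. Gm10123 followed in CPM with 725, 798 and 808 CPM in KO and 951, 822 and 731 CPM in WT. Gm5526 stood at 594, 599 and 634 CPM in KO and 885, 632 and 595 CPM in WT. Gm12715, Gm12918, Vcp-rs, Gm10080 and Gm12895 completed the 10 most abundant with Hsp25-ps1 and Gm15459, described below, and their groups overlapped too. Gm12895 averaged 188 ± 11.05 CPM in KO and 253 ± 79.5 CPM in WT (SD, n = 3 each), a difference that rested on WT replicate 1 (log2 fold change −0.43, and −0.14 without it). In Gm10123 and Gm5526, WT replicate 1 was the highest library and the other libraries of both groups overlapped.

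**Figure D1:**
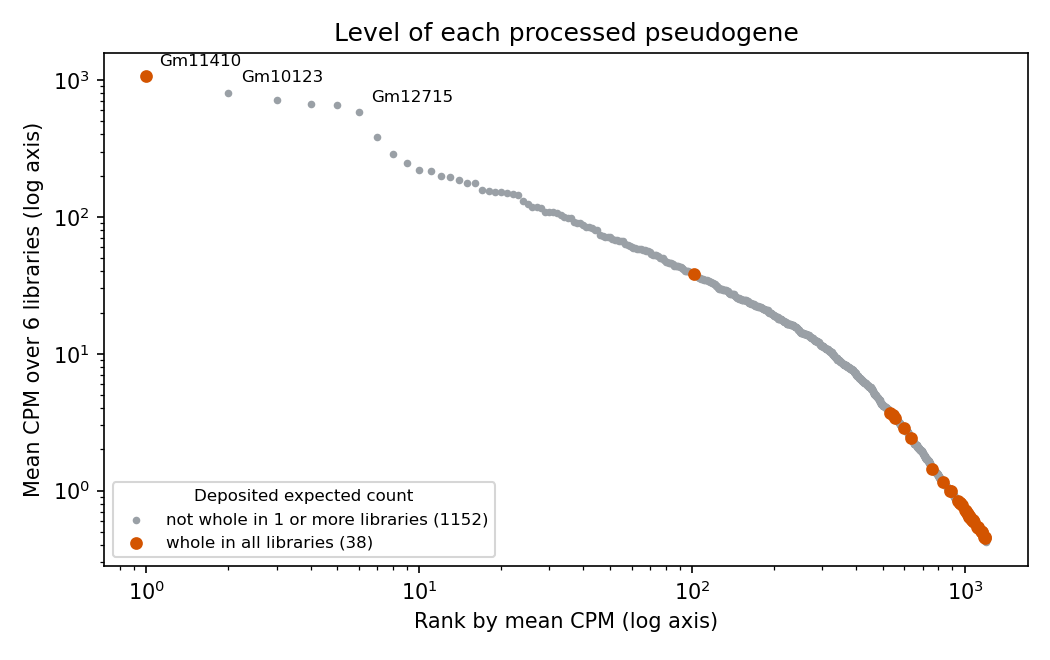
Each point is a processed pseudogene, placed by its rank (log axis) and its mean CPM over the 6 libraries (log axis). Orange points are the 38 whose deposited expected counts were whole in every library, led by Gm11410 at 1064 CPM, and grey points are the other 1152.

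Nearly all of these levels rest on counts that are not whole numbers. Of the deposited values of the 1190 pseudogenes, 90.5% were not whole, taking values within 0.01 of an integer as whole. For the 12420 protein-coding genes that reached the same 60 counts the share was 33.9%, and for 317 lincRNAs it was 30.5%. The genes named as parents had 96.2% of values not whole and the 81 coding genes of cytosolic ribosomal proteins had 95.3%. A value that is not whole does not show what part of a gene's reads was divided. Unprocessed pseudogenes, which arise by duplication of genomic DNA, had 79.6%. Only 38 processed pseudogenes had whole counts in all 6 libraries. Gm11410 was among them, and so was its neighbour Gm11408 at chr4:80003396-80003914 on the minus strand, at 27.0, 36.4 and 31.2 CPM in KO and 69.9, 32.2 and 31.6 CPM in WT. Gm11408 was highest in WT replicate 1, and the other libraries overlapped. Vamp7-ps, named for a vesicle fusion protein, was next among the 38 in level, at 3.70 ± 0.775 CPM in KO and 3.72 ± 1.16 CPM in WT (SD, n = 3 each).

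**Figure D2:**
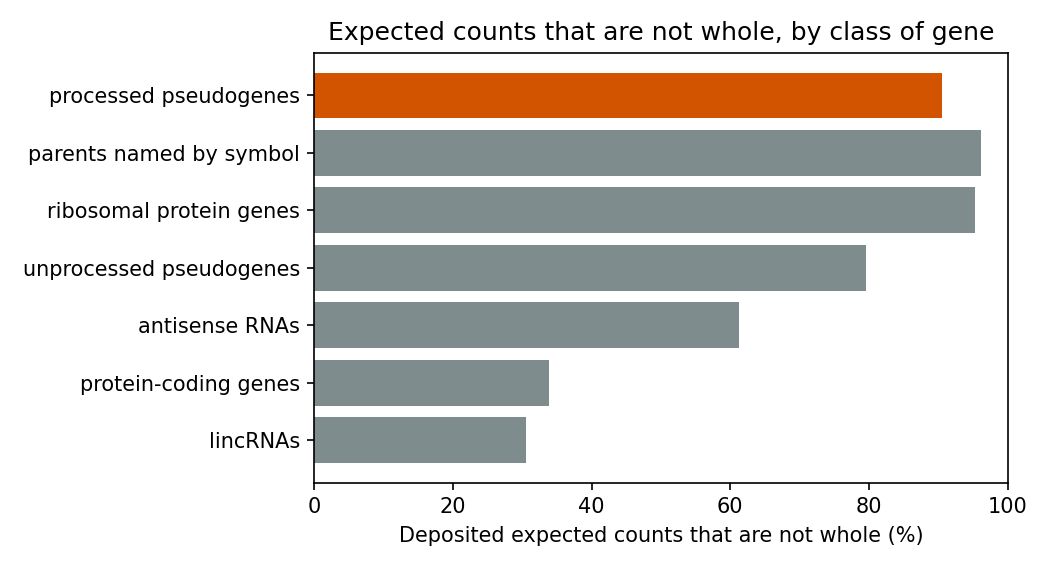
Bars give the percent of deposited expected counts that are not whole, over genes with at least 60 counts in all, for 7 classes of gene. Processed pseudogenes (orange) reach 90.5% and sit with their parents (96.2%) and ribosomal protein genes (95.3%), against 33.9% for protein-coding genes.

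Position also bears on the counts. The span of 286 pseudogenes (24.0%) overlapped another gene of the table, for 115 of them on the same strand, and for 105 of those the gene was protein-coding. No source used here says whether strand was kept, so counts of overlapping genes are uncertain. RefSeq matched 1024 of the pseudogenes by symbol. It lists 974 of these as pseudogenes, 38 as transcribed pseudogenes and 12 as protein-coding, among them H3f3c, which stood at 60.5, 59.5 and 66.1 CPM in KO and 80.6, 69.9 and 63.9 CPM in WT. The groups of H3f3c overlapped, with WT replicate 1 the highest.

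A parent could be named for 207 pseudogenes, 172 of them from the symbol itself, and these had 144 distinct parents. Ppia, which encodes cyclophilin A, a prolyl isomerase, had 8 copies, and 37 parents had at least 2. Set per kilobase, with the annotated span for the copy and the longest coding transcript for the parent, the copy stood at a median of 35.5% of its parent over 199 pairs with a parent length. In 55 pairs the copy was at or above its parent, in 68 it was under 10% of it and in 14 under 1%. Rps6-ps4 stood at 206 CPM per kilobase against 18.5 for Rps6, the gene of a small-subunit ribosomal protein. Rpl3-ps1 stood at 155 CPM per kilobase against 25.1 for Rpl3, of the large subunit. At the other end, Actg-ps1 stood at 12.5 CPM per kilobase against 862 for Actg1, the gene of cytoplasmic gamma actin. Levels of both members of such a pair can depend on how reads were divided between them.

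For most named pairs the copy varied less relative to its parent than by itself. The log2 ratio of copy to parent counts, with 2 added to each, varied more over the 6 libraries than the copy's own log2 CPM, or as much, in 66 of all 207 pairs. It varied less in 69 of the 92 pairs whose copy reached 5 CPM, with a median SD of 0.143 for the ratio and 0.232 for the copy. Rpl14-ps1 had log2 ratios to Rpl14 of 0.20, 0.21 and 0.22 in KO and 0.23, 0.19 and 0.28 in WT, while its own level was 64.9, 74.7 and 75.1 CPM in KO and 92.2, 72.1 and 63.7 CPM in WT. Rpsa-ps10 had ratios to Rpsa, the gene of a ribosomal and laminin-binding protein, of 0.20, 0.15 and 0.10 in KO and 0.15, 0.12 and 0.15 in WT. Tpt1-ps3 had ratios to Tpt1, the gene of a translationally controlled growth protein, of 1.10, 1.04 and 1.19 in KO and 1.12, 1.20 and 1.14 in WT. In all 3 pairs the groups overlapped and the ratio held in WT replicate 1, where the copy itself was highest.

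For some pairs the expected counts of 2 genes added up to whole numbers. The reads themselves were not examined, so a division of reads between the 2 genes was not observed directly. Among 1046 pseudogenes with mostly non-whole counts under 2000 a library, some had exactly 1 other gene for which the 2 expected counts added up to a whole number in every one of the 6 libraries, and no gene was found for more than 1 of them. That other gene was protein-coding in 174 pairs and not in 3 more. A parent had been named from the symbol or an older name for 21 of these pseudogenes, and in 21 of 21 it was the gene that the sums picked out, as for Atf1-ps with Atf1, Crry-ps with Cr1l and Impdh2-ps with Impdh2. The sums used no name. The pseudogene held a median of 14.7% of the pair's counts, from 0.818% for Gm14857 with Ipo5, an importin gene, to 94.2% for Mrpl23-ps1 with Mrpl23, a mitochondrial ribosomal protein gene. It held under 5% in 37 pairs and over 50% in 21.

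Mrpl23-ps1 stood at 36.8, 39.7 and 46.8 CPM in KO and 63.0, 47.1 and 44.8 CPM in WT, and Mrpl23 at 2.62, 3.50 and 2.31 CPM in KO and 3.69, 2.64 and 2.66 CPM in WT. The groups overlapped for both. Gm9816, the most abundant of them, was paired with Gps1, a COP9 signalosome subunit gene. It stood at 58.3, 56.8 and 63.2 CPM in KO and 59.7, 71.6 and 58.5 CPM in WT, while Gps1 stood at 42.2, 41.3 and 44.0 CPM in KO and 42.3, 43.4 and 39.8 CPM in WT. Neither separated the genotypes.

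Whether the genotypes differed was tested over all genes and read out for the pseudogenes. Of the 1190, 1169 passed the filter on low counts and 21 did not. In edgeR's quasi-likelihood test with Benjamini-Hochberg adjustment, 0 of 1169 had an adjusted p under 0.05, where the whole table of 15185 genes had 0%. The smallest adjusted p among them was 0.247, for Gm9029, described below. That gene held 3 summed counts in KO and 57 in WT. It reached the floor of the rule only through WT, so its difference is partly fixed by that choice. At an unadjusted p under 0.05 there were 54 (4.62%), where all genes had 6.29%. Of these 19 were higher in KO (1.63%, against 2.85% of all genes) and 35 lower in KO (2.99%, against 3.44% of all genes). Without WT replicate 1 the split turned to 36 higher (3.05%, against 3.68% of all genes) and 28 lower (2.37%, against 3.77% of all genes). Scaling by library totals gave 27 higher (2.31%, against 4.23% of all genes) and 25 lower (2.14%, against 2.48% of all genes), so that the whole table moved towards higher in KO. The groups did not overlap for 164 (14.0%), where all genes had 14.5%. These shares lay near or under the background. DESeq2 called 7, all lower in KO, which is 0.653% of the 1072 pseudogenes that it gave an adjusted p, where it called 0.473% of all genes and 0.356% of all genes as lower in KO. Limma voom called 0 and put 53 (4.53%) at an unadjusted p under 0.05, where all genes had 6.52%.

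The class as a whole took 1.81%, 1.89% and 1.92% of the counts in KO replicates 1 to 3 and 2.28%, 1.90% and 1.93% in WT replicates 1 to 3. The mean was 1.87 ± 0.06% in KO and 2.04 ± 0.21% in WT (SD, n = 3 each). WT replicate 1 stood above the other 5 libraries, which lay between 1.81% and 1.93%, and without it WT averaged 1.92%. The fitted mean was lower in KO for 662 of 1169 (56.6%, where all genes had 50.1%), with a median log2 fold change of −0.04. Without WT replicate 1 that direction turned, with 43.5% lower in KO and a median of 0.04. The direction of the class therefore rested on 1 library.

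**Figure D3:**
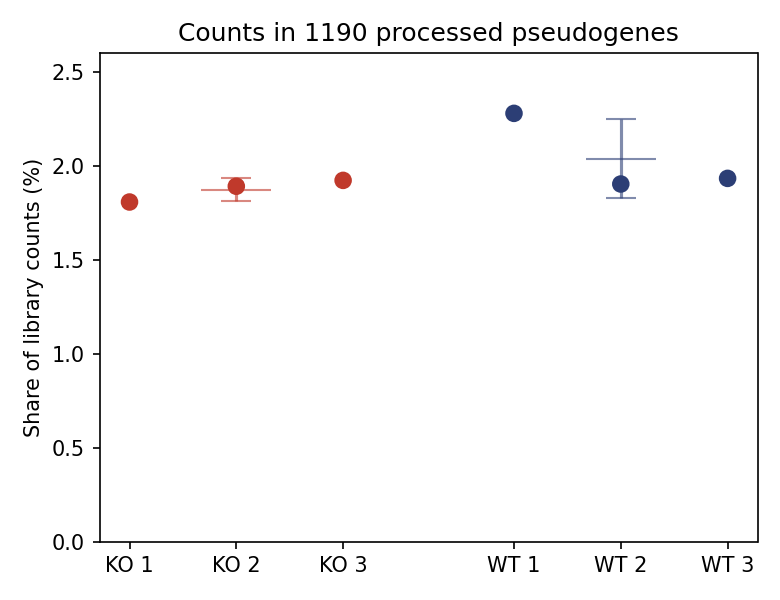
Points give the percent of each library's counts that fell in the 1190 processed pseudogenes, with the KO libraries on the left and the WT libraries on the right. Horizontal marks and bars give the mean and SD of 3 libraries. WT replicate 1 lies at 2.28% and the other 5 libraries between 1.81% and 1.93%.

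Copies of cytosolic ribosomal protein genes were the largest named family, with 85 members from 46 parents. They took 0.163%, 0.175% and 0.182% of the counts in KO and 0.228%, 0.166% and 0.152% in WT, with WT replicate 1 the highest library, WT replicate 2 among the KO values and WT replicate 3 below every KO library. Of the 85, the fitted mean was higher in KO for 27 and lower for 58, with a median log2 fold change of −0.06. Without WT replicate 1, 73 were higher and 12 lower, with a median of 0.15. No member passed in edgeR, 0 of 85 were higher at an unadjusted p under 0.05, and Rps13-ps1 (−0.51) and Rpl13-ps1 (−0.999) were lower at that level. Over all genes 2.85% were higher and 3.44% lower at that level. Rps6-ps4 stood at 140.5, 151 and 157 CPM in KO and 186, 157 and 136 CPM in WT. Rpl3-ps1 stood at 173, 193 and 198 CPM in KO and 205, 191 and 164 CPM in WT. The groups overlapped for both copies.

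The other named families were small, and 0 of their members passed in edgeR. Copies of translation factor genes numbered 4, with 2 higher and 2 lower in KO, and 1 higher and 3 lower without WT replicate 1. Eif1-ps1, a copy of the start codon selection factor gene Eif1, was the most abundant at a mean of 29.0 CPM (−0.23). Copies of glycolysis and energy metabolism genes numbered 9, with 3 higher and 6 lower (median −0.07, and 6 higher and 3 lower without WT replicate 1, median 0.03). Pgam1-ps2, a copy of the phosphoglycerate mutase gene Pgam1, stood at 66.2, 69.4 and 74.7 CPM in KO and 72.8, 75.7 and 72.1 CPM in WT, with overlap. Copies of chromatin and nuclear protein genes numbered 6, with 2 higher and 4 lower (median −0.12, and 3 of each without WT replicate 1), and copies of cytoskeleton genes numbered 4, with 1 higher and 3 lower (median −0.16, and 2 of each without WT replicate 1). Copies of other named parents numbered 88, of which 87 were tested, with 36 higher and 51 lower (median −0.03), and 43 higher and 45 lower of 88 tested without WT replicate 1. The 963 tested without a named parent had 429 higher and 534 lower (median −0.04), and without WT replicate 1 the direction turned to 532 higher and 443 lower (median 0.03). In the first 4 of these families 0 members had an unadjusted p under 0.05, where all genes had 6.29%. Among copies of other named parents 3 were higher and 1 lower in KO at that level. Among those without a named parent 16 were higher and 30 lower, where 2.85% of all genes were higher and 3.44% lower.

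Among copies of chaperone genes, Hsp25-ps1 and Hspd1-ps3 had lower counts in KO and the copies of Ppia did not separate the genotypes. The family of chaperones and isomerases had 11 copies, of which the fitted mean was higher in KO for 7 and lower for 4 (median log2 fold change 0.12, and 0.33 without WT replicate 1). The 8 copies of Ppia had log2 fold changes from −0.21 to 0.36 and none passed an unadjusted p of 0.05 in edgeR. Hspa9-ps1, a copy of a mitochondrial Hsp70 gene, was at 0.45 (edgeR unadjusted p = 0.21). Hsp25-ps1 and Hspd1-ps3 were the 2 of 11 with an unadjusted p under 0.05, both lower in KO, where 3.44% of all genes were lower at that level.

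Hsp25-ps1 lies at chr13:45078498-45079127 on the minus strand and overlaps Gm9817. It is named for Hsp25, an older name of Hspb1, the small heat shock protein gene. It stood at 376, 574 and 475 CPM in KO and at 1218, 649 and 967 CPM in WT. Every KO library lay below every WT library, with WT replicate 1 the highest and WT replicate 2 near the KO values. The log2 fold change was −0.99 ± 0.24 SE (edgeR adjusted p = 0.507, DESeq2 adjusted p = 0.0140). Without WT replicate 1 it was −0.77 and the DESeq2 call ended (adjusted p = 0.466). Hspb1 stood at 320, 484 and 382 CPM in KO and 1079, 523 and 803 CPM in WT, and the log2 ratio of copy to parent was 0.26 ± 0.04 in KO and 0.25 ± 0.07 in WT (SD, n = 3 each; 2-sided exact permutation test, p = 0.9, where 3 against 3 cannot go below 0.1). With both counts added, the log2 fold change was −0.97.

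Hspd1-ps3, at chr11:41498737-41500458 on the plus strand, is a copy of Hspd1, the gene of the mitochondrial chaperonin Hsp60. It stood at 35.3, 31.4 and 30.3 CPM in KO and 46.7, 44.7 and 54.2 CPM in WT, without overlap (−0.59 ± 0.13 SE, edgeR adjusted p = 0.489, DESeq2 adjusted p = 0.0258). Its log2 ratio to Hspd1 averaged −0.96 ± 0.09 in KO and −0.95 ± 0.21 in WT (SD, n = 3 each; exact permutation test, p = 1). The sum of both gave −0.58. For these 2 copies the ratio to the parent did not separate the genotypes.

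Gm15459 at chr5:5781615-5783555 and Gm8355 at chr10:14745362-14747302, both on the minus strand and without a named parent, had the same pattern. Gm15459 overlaps Gm26825, so its counts are uncertain. Gm15459 stood at 415, 549 and 409 CPM in KO and 905, 698 and 1028 CPM in WT. Gm8355 stood at 49.7, 73.7 and 49.9 CPM in KO and 130, 93.4 and 128.8 CPM in WT. The groups of each lay apart, with KO replicate 2 the highest KO library and WT replicate 2 the lowest WT library for both. The log2 fold changes were −0.94 ± 0.18 SE for Gm15459 (edgeR adjusted p = 0.413, DESeq2 adjusted p = 0.000799) and −1.02 ± 0.19 SE for Gm8355 (edgeR adjusted p = 0.413, DESeq2 adjusted p = 0.000951). In a comparison added after their values were seen, the gene most like each in log2 CPM over the 6 libraries was Hspa8, the constitutive cytosolic chaperone gene, with Pearson r of 0.999 for Gm15459 and 0.997 for Gm8355. Next were Gna14 (0.995), Gm8355 (0.991) and Spc24 (0.991) for Gm15459. For Gm8355 they were Gm15459 (0.991), Trmt61a (0.987) and Gm26825 (0.985). Each r is a description over 6 points that share depth and scaling, and a highest value among all genes does not name a parent. The sources used here do not name a parent for either Gm15459 or Gm8355. The counts of Gm15459 and Hspa8 together gave a log2 fold change of −0.92.

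DESeq2 called 3 further pseudogenes. Gm5864, at chr5:32420003-32420972, stood at 91.2, 99.0 and 98.7 CPM in KO and 154, 133 and 128.6 CPM in WT (−0.52 ± 0.12 SE, DESeq2 adjusted p = 0.0170). Gm3571, at chr10:93778660-93779719, stood at 7.51, 8.49 and 9.50 CPM in KO and 12.6, 15.4 and 17.96 CPM in WT (−0.85 ± 0.17 SE, DESeq2 adjusted p = 0.0170). The groups of both lay apart, and edgeR gave each an adjusted p of 0.489. The last was AC165349.1, described next. Without WT replicate 1, DESeq2 called 6 pseudogenes (0.513%), all lower in KO, where it called 0.52% of all genes, and these were the 7 without Hsp25-ps1.

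**Figure D4:**
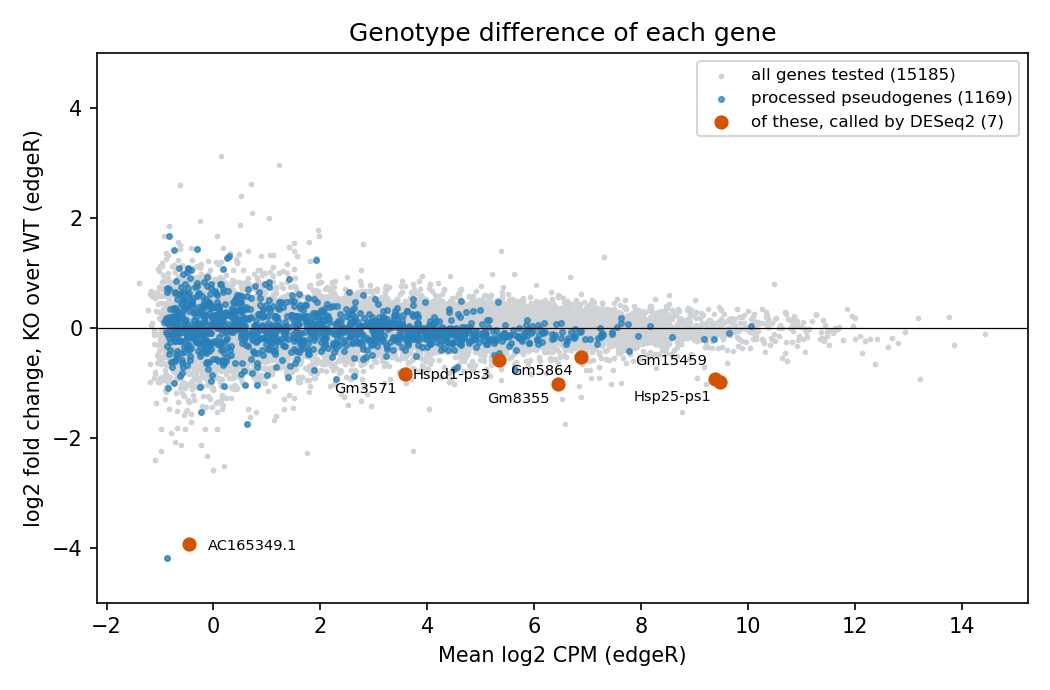
Each point is a gene, with its mean log2 CPM across and its log2 fold change of KO over WT from edgeR upward. Grey points are all 15185 genes tested, blue points the 1169 processed pseudogenes tested, and orange points the 7 that DESeq2 called, all below 0.

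AC165349.1 was close to absent in KO. At chr12:54716796-54717219 on the plus strand, it held 2.18, 0.118 and 2.58 expected counts in KO and 20.1, 15.5 and 46.3 in WT. The summed counts were 5 in KO and 82 in WT, so that it reached the floor of 60 only through its WT counts, and the difference is partly fixed by that choice. DESeq2 called it (adjusted p = 0.00404) and edgeR gave an adjusted p of 0.398. AC165349.2, a processed pseudogene of about the same length at chr12:54731716-54732141 on the minus strand, ran the other way, with 23.8, 30.9 and 41.4 expected counts in KO and 15.9, 14.5 and 9.69 in WT. The sum of both was 26, 31 and 44 in KO and 36, 30 and 55.98 in WT, and the sums overlapped (log2 fold change of the sum −0.33, exact permutation test, p = 0.2). The sum differed less between the genotypes than either copy did, which is largely fixed because the copies ran opposite ways.

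Gm9029, at chr10:118243800-118246209 on the minus strand, held 0.326, 1.44 and 1.56 expected counts in KO and 17.4, 17.9 and 22.1 in WT. It too reached the floor only through WT, with 3 summed counts in KO and 57 in WT, so its values are a description. Its neighbour Gm9030, of the same length, held 31.5, 53.005 and 56.8 in KO and 17.8, 27.1 and 50.02 in WT. Their sum overlapped between the groups (log2 fold change −0.13, exact permutation test, p = 0.4), and the sum over 7 genes of like length on this stretch of chromosome 10, of which the table marks 5 as protein-coding, gave −0.01 (p = 1). Among those 5, the counts of Gm32717 and Gm32802 also changed places within a genotype. Gm32717 held 15.01, 0.0410 and 8.32 expected counts in KO and 15.8, 0.125 and 13.1 in WT, while Gm32802 held 0.00652, 19.1 and 8.32 in KO and 0.00959, 12.9 and 13.1 in WT. These sums over neighbours and parents were chosen after the values were seen.

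**Figure D5:**
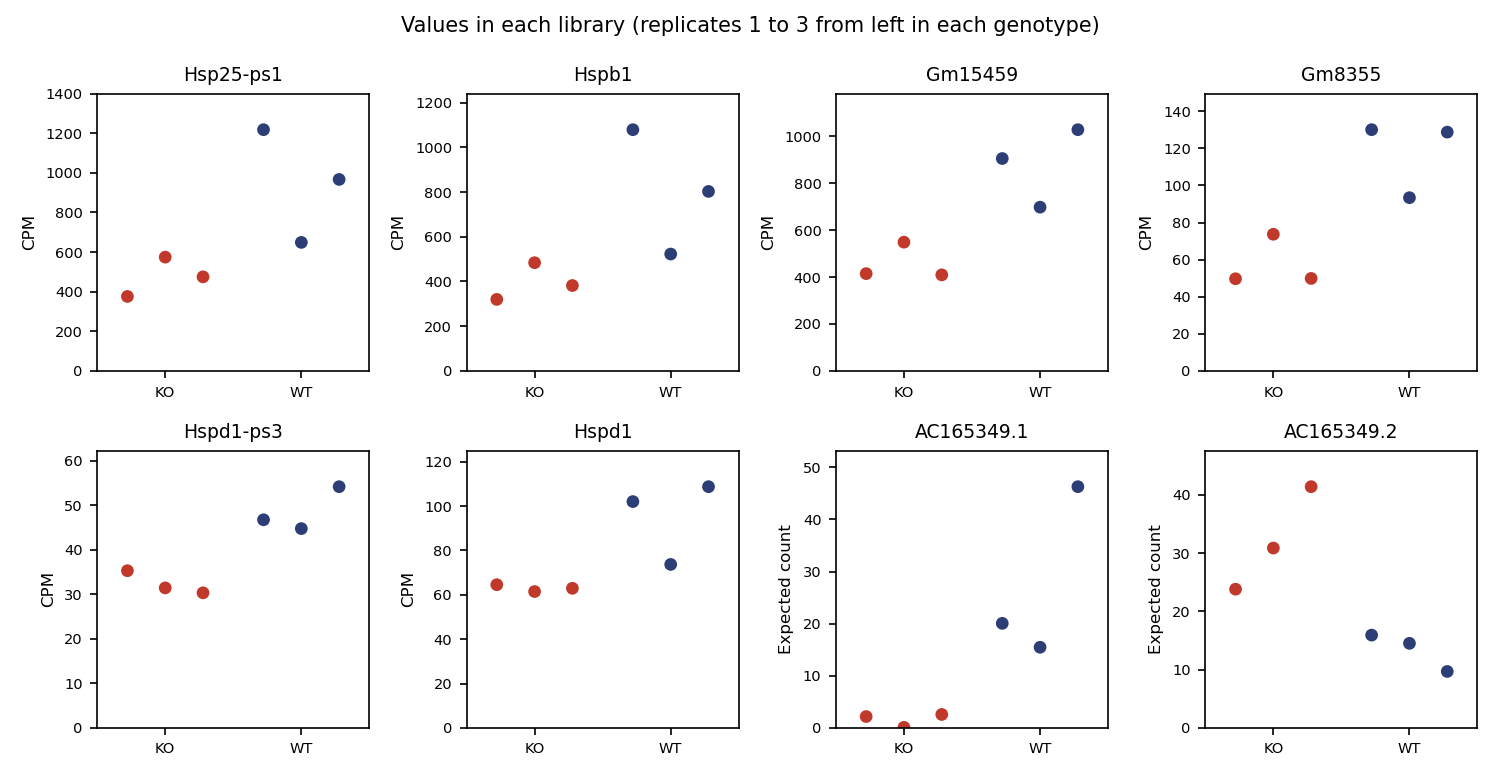
Points give the level in each library, KO (red) left and WT (blue) right, with replicates 1 to 3 from left to right in each. Upper panels show Hsp25-ps1, its parent Hspb1, Gm15459 and Gm8355 in CPM, and lower panels show Hspd1-ps3 and its parent Hspd1 in CPM and the neighbours AC165349.1 and AC165349.2 in expected counts. Each pseudogene shown separates the genotypes, with AC165349.2 higher and the others lower in KO.

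Among pseudogenes with higher values in KO, 0 passed in edgeR or DESeq2. The 8 with the smallest p among those without overlap and with a mean of at least 0.5 CPM had log2 fold changes from 0.47 for Gm5425 to 1.44 for Gm6828 and edgeR adjusted p-values from 0.718 to 0.775. Gm5425 stood at 19.1, 16.6 and 18.4 CPM in KO and 14.6, 13.5 and 11.1 CPM in WT. Cd9-ps, a copy of the tetraspanin gene Cd9, stood at 11.4, 8.80 and 8.04 CPM in KO and 6.48, 6.92 and 6.34 CPM in WT (0.52 ± 0.18 SE). The log2 ratio of Cd9-ps to Cd9 was 0.33 higher in KO (exact permutation test, p = 0.2). Gm16425 stood at 5.41, 4.76 and 5.30 CPM in KO and 3.21, 2.80 and 0.770 CPM in WT (1.23 ± 0.43 SE), with WT replicate 3 the lowest library. The remaining 5 were Gm18860 (0.66), Gm9299 (1.27), AC225888.1 (1.31), Gm6828 (1.44) and CT025555.1 (1.41), each with a mean under 7 CPM in both groups. Gm13502 (−0.94 ± 0.24 SE, edgeR adjusted p = 0.561) completed the 8 with the smallest p among those lower in KO without overlap and with a mean of at least 0.5 CPM, a limit that left out Gm9029. The other 7 were the ones DESeq2 called.

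The ratio of copy to parent was then compared between the genotypes. Over the 207 named pairs the difference in log2 ratio, KO minus WT, had a median of 0.08 and ran from −1.78 to 1.37. In 19 pairs the exact permutation test reached 0.1, the smallest p that 3 against 3 allows. With no difference between genotypes, a share of 0.1 of pairs would be expected to reach that p, and 19 of 207 did not exceed it. The smallest Benjamini-Hochberg value over the 207 was 0.845. Over the pairs with whole sums the median was −0.01, 29 reached 0.1, and the smallest adjusted value was 0.610. The 29 were a larger share of their pairs than 0.1, but no pair passed after adjustment. The pairs named next are given as a description. Impdh2-ps, a copy of a gene of guanine nucleotide synthesis, is in both lists. It stood at 30.8, 37.9 and 36.3 CPM in KO and 42.5, 40.4 and 36.2 CPM in WT, while Impdh2 stood at 14.5, 19.2 and 18.01 CPM in KO and 16.8, 16.6 and 15.7 CPM in WT. The log2 ratio was 1.02 ± 0.05 in KO and 1.27 ± 0.06 in WT (SD, n = 3 each; exact permutation test, p = 0.1). Rps7-ps2 with Rps7 had the lowest difference among the 19, at −0.97, from levels of 0.76 CPM for the copy and 3.75 CPM for the parent.

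Of the 176 tested pseudogenes in pairs with whole sums, 9 had an unadjusted p under 0.05 (5.11%, where all genes had 6.29%), a share under the background. The values of 4 of them are given as a description. For some the partner had a value of the same sign. Gm4798 stood at 2.11, 1.89 and 3.03 CPM in KO and 1.13, 1.68 and 1.26 CPM in WT (log2 fold change 0.79, edgeR unadjusted p = 0.0344), and Etv5, its partner and a transcription factor gene of the ETS family, was at 0.94. The pair together stood at 22.2, 21.5 and 21.8 CPM in KO and 8.80, 13.7 and 11.9 CPM in WT, without overlap. Gm7367 (0.44) and its partner Ubald2 (0.37) also had values of one sign. For others the partner stayed near 0. Gm13378 (−0.96) took 1.12% of the pair's counts in KO and 2.53% in WT, while its partner Phf3 was at 0.16. Gm36298 (0.76) took 20.6% in KO and 13.5% in WT, while its partner Zfp935 was at −0.04. In an alternative added after the data were seen, each of these pairs was counted as 1 gene. So were the neighbours AC165349.1 with AC165349.2 and Gm9029 with Gm9030. The value of a pair then includes the counts of the partner. Over unpaired members and pairs, edgeR again called 0. It put 54 (937 of all genes) at an unadjusted p under 0.05, with 22 higher and 32 lower in KO.

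The pseudogenes with the widest spread between libraries, among those with a mean of at least 1 CPM, did not follow genotype. Hist1h2al, named as a histone H2A gene, stood at 0, 2.78 and 0.0356 CPM in KO and 4.04, 0.102 and 1.75 CPM in WT. Smt3h2-ps4, a copy of Sumo2, the gene of a ubiquitin-like modifier, stood at 1.20, 0 and 0.783 CPM in KO and 0.594, 2.64 and 3.26 CPM in WT. Gm10182 and Gm5831 were the other 2, with SDs of log2 CPM of 1.67 each. Gm10182 stood at 2.11, 0.314 and 0.926 CPM in KO and 0.654, 0 and 2.07 CPM in WT. The groups overlapped in all 4.

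At the floor of the rule, the 3 pseudogenes nearest above 60 summed counts were Gm15442 with 60.1, Pgam1-ps1 with 60.4 and Gm9029 with 60.7, and the 3 nearest below were AC168881.1 with 59.7, Mdm4-ps with 59.7 and Gm37108 with 59.7. Gm15442 held 6.28, 24.9 and 24.6 expected counts in KO and 6.28e-15, 1.47 and 2.87 in WT. It reached the floor mainly through KO, so its difference is partly fixed by that choice. A floor of 30 would have kept 1547 pseudogenes and a floor of 120 would have kept 913.

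Within 5 Mb of the miR-21 gene on chromosome 11 lay 4 of the pseudogenes. Gm11478, 46361 bases from it, stood at 20.8 ± 0.412 CPM in KO and 21.1 ± 4.36 CPM in WT (−0.02). Rpl13-ps1, 1472941 bases away, stood at 0.347 ± 0.058 CPM in KO and 0.699 ± 0.167 CPM in WT (−0.999 ± 0.44 SE, edgeR adjusted p = 0.778). Gm11512 was at −0.32 and Gm11434 at 0.08, and 0 of the 4 passed.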

How the data were processed

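RNA-seq libraries of 3 KO and 3 WT samples of aortic smooth muscle cells were analysed from the deposited table of expected counts per gene, which were not normalized by the authors. Per the submitters' processing notes, STAR 2.6 and DESeq2 were used with build mm10; no source used here names the counting tool, annotation release or strand setting. The table held 0 sample columns without a label. Gene starts in the table were taken as 1-based and its stops as 1 base past the end, and printed ends were corrected. Of 13715 protein-coding genes matched to RefSeq by symbol, 4130 had an equal start. The stop was equal to the end plus 1 in 4117 and equal to the end in 360. The check thus rests on a minority of the matched genes.

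Counts were rounded and tested over all genes with edgeR 4.0.16 (R 4.3.3), using its expression filter, TMM factors and the robust quasi-likelihood test, with adjusted p under 0.05 as the threshold. DESeq2 1.42.0 and limma 3.58.1 (voom) were alternatives. The code was tested on simulated data. CPM values come from rounded counts and TMM-scaled library sizes; log2 CPM used a prior count of 2. Library totals of 17123748 to 28610649 give members at the floor of 60 summed counts about 10 counts a library, so that their values carry a large counting error. Parents were taken from the symbol before -ps, then from RefSeq synonyms and older symbols, and 1 by hand. Named were the 10 most abundant members, the 8 with the smallest p per direction among those without overlap and with a mean of at least 0.5 CPM, every called member, the 12 most abundant with a parent in the symbol, the 4 most variable and the 3 on each side of the floor. Others were chosen after their values were seen. Members and lists were chosen with earlier results of these data known. Replicate numbers were not used as pairs in the main fit. Same-numbered libraries had correlations of −0.26, −0.18 and −0.07 in their deviations from the group means. With 3 libraries a group these values cannot tell whether samples were paired.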

Additional observations from a re-analysis of the deposited data

How the results depend on the processing

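The 0 pseudogenes called by edgeR stayed at 0 under library totals, DESeq2 size factors, no filter, unrounded counts, limma voom, the replicate block, each library left out and pairs counted as 1 gene. Over all genes edgeR called 9 without WT replicate 1, 1 without WT replicate 2 and 0 in its other fits. DESeq2 called 7 (69 of all genes), and 6 without WT replicate 1 (79 of all genes), an alternative added after seeing the data. The count at an unadjusted p under 0.05 was 54 (955 of all genes), was 29 with the replicate block (572 of all genes) and ran from 31 to 64 with 1 library left out (620 to 1271 of all genes), at 31 without KO replicate 1 and 35 without KO replicate 3. With library totals it was 52, of which 27 were higher and 25 lower in KO, where TMM gave 19 higher and 35 lower. Over all genes library totals gave 643 higher and 376 lower, and TMM gave 433 higher and 522 lower. The share of counts, KO minus WT, was −0.16 percentage points, −0.06 without overlapping members and −0.04 without WT replicate 1. The median log2 ratio to the parent, KO minus WT, was 0.0801, was 0.0516 among copies with at least 50 counts, and ran from 0.0243 to 0.0786 with 1 library left out, lowest without WT replicate 2. With 1 library left out, the log2 fold change of these genes had the following range, and without WT replicate 1 its sign turned in edgeR and in DESeq2: Gm10123 (−0.19 to 0.000741, DESeq2 0.00355), Gm12918 (−0.30 to 0.0127, DESeq2 0.0155), Vcp-rs (−0.15 to 0.14, DESeq2 −0.15), Gm10080 (−0.27 to 0.0639, DESeq2 0.0669), Rps6-ps4 (−0.20 to 0.0268, DESeq2 0.0298), Tpt1-ps3 (−0.27 to 0.0342, DESeq2 0.0372), Rps23-ps1 (−0.23 to 0.17, DESeq2 0.17), Rpl19-ps11 (−0.33 to 0.0162, DESeq2 0.0192), Gstm2-ps1 (−0.14 to 0.0553, DESeq2 0.058), Rpl23a-ps3 (−0.34 to 0.11, DESeq2 0.11), Rpl10a-ps1 (−0.27 to 0.11, DESeq2 0.11) and Rpl14-ps1 (−0.20 to 0.0787, DESeq2 0.0815). Hist1h2al turned in DESeq2 alone (0.0245). Rpl3-ps1 ran from −0.0767 to 0.0839 and was below 0 without KO replicate 2 (−0.00839), KO replicate 3 (−0.0258) or WT replicate 3. Gm10182 ran from −0.58 without KO replicate 1 to 1.78 without WT replicate 3 and was at −0.35 without WT replicate 2. The cause was not tested. Every called member was named, so the 7 that passed under DESeq2 are among the named genes by choice, and 0 passed in edgeR. Leaving out WT replicate 1 moved Gm12895 to −0.14 and Rpsa-ps10 to −0.03, against −0.43 and −0.20 with it. Depth limits copies of a few counts.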
